A study of Mus musculus with 12 samples.

Results

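The 10 genes Sycp1, Sycp2, Sycp3, Hormad1, Stag3, Rec8, Smc1b, Dmc1, Msh5 and Mlh3 encode proteins of the synaptonemal complex, of meiotic cohesin and of meiotic recombination. They were taken by symbol from a table of 23235 gene entries, with earlier results of these data known, and all 10 were found. RNA had been measured in growing oocytes of mice at day 14, either wild type (WT) or Mtr4-null, that is, lacking the helicase MTR4. MTR4 unwinds RNA and feeds it to the nuclear exosome, which trims and degrades RNA in the nucleus. Each oocyte had been separated into nucleus and cytoplasm with a micromanipulator, and 10 nuclei or 10 cytoplasms made up a sample. This gave 4 groups of 3 libraries, namely WT cytoplasm, Mtr4-null cytoplasm, WT nucleus and Mtr4-null nucleus. How the Mtr4 allele was removed, and in which cells, is not given in the sources used here, and each library pools oocytes whose number of donor mice is not stated. Values are FPKM, fragments scaled by transcript length and by the mapped fragments of the library, so levels of different genes can be set side by side.

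Early in meiosis the chromosomes of a germ cell are built into loops on a protein axis. Cohesin complexes with the subunits REC8, STAG3 and SMC1B hold the sister chromatids along it, SYCP2 and SYCP3 coat it, and HORMAD1 marks the stretches that have not yet paired. SYCP1 then joins the axes of homologous chromosomes like the teeth of a zip, while DMC1 carries out strand exchange and MSH5 and MLH3 act in the maturation of crossovers. In the mouse ovary these events take place before birth, and a growing oocyte is held at the end of meiotic prophase with the complex taken apart, crossovers made and cohesin still holding the chromosomes together.

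Of the libraries, 2 did not stand where their labels put them. Skiv2l2, the gene for MTR4, was at 19.4 to 21.1 FPKM in WT cytoplasm but at 0.315 to 1.04 FPKM in cytoplasm without MTR4. In the WT nuclei it was at 2.45 to 6.06 FPKM, while replicate 1 of the libraries labelled Mtr4-null nucleus held 7.98 FPKM, above all of them, against 0.182 and 1.12 FPKM in replicates 2 and 3. Replicate 3 of the same label had Spearman correlations of 0.916 to 0.931 across genes with the Mtr4-null cytoplasms, and of 0.831 and 0.837 with the other libraries of its own label. The guide RNA Scarna2 took 58.0% to 81.7% of all FPKM in nuclei and at most 5.13% in the cytoplasms. Relative depth, read from the smallest values, was 0.129 to 0.398 in the nuclei and 0.520 to 1.56 in the cytoplasms, with WT cytoplasm replicate 1 set to 1. The summed FPKM of 10 oocyte markers was 11600 to 17200 in the cytoplasms and 3380 to 12400 in the nuclei. That of 11 theca and stroma markers was 3.96, 5.9 and 37.6 in the WT nuclei, from the lowest library to the highest. It was 1.51 to 4.08 in the nuclei labelled Mtr4-null and at most 1.93 in the cytoplasms. The part of such RNA in the values below was not tested.

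In WT oocytes the 10 RNAs differed widely in level and in how their FPKM compared between nucleus and cytoplasm. FPKM is a share of a library, so these comparisons do not give the amount of an RNA in each compartment. In the WT cytoplasm the order from the highest was Sycp3, Sycp2, Hormad1, Smc1b, Mlh3, Stag3, Sycp1, Msh5, Dmc1 and Rec8. Each of these neighbours was separated in all libraries except Sycp1 from Msh5 and Dmc1 from Rec8, whose values overlapped. In the WT nucleus Sycp2 stood first and apart, followed by Stag3 and Sycp3, which overlapped. Hormad1, Mlh3 and Smc1b came next and overlapped in sequence, as did Msh5, Sycp1 and Dmc1 below them, with Rec8 last.

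**Figure D1:**
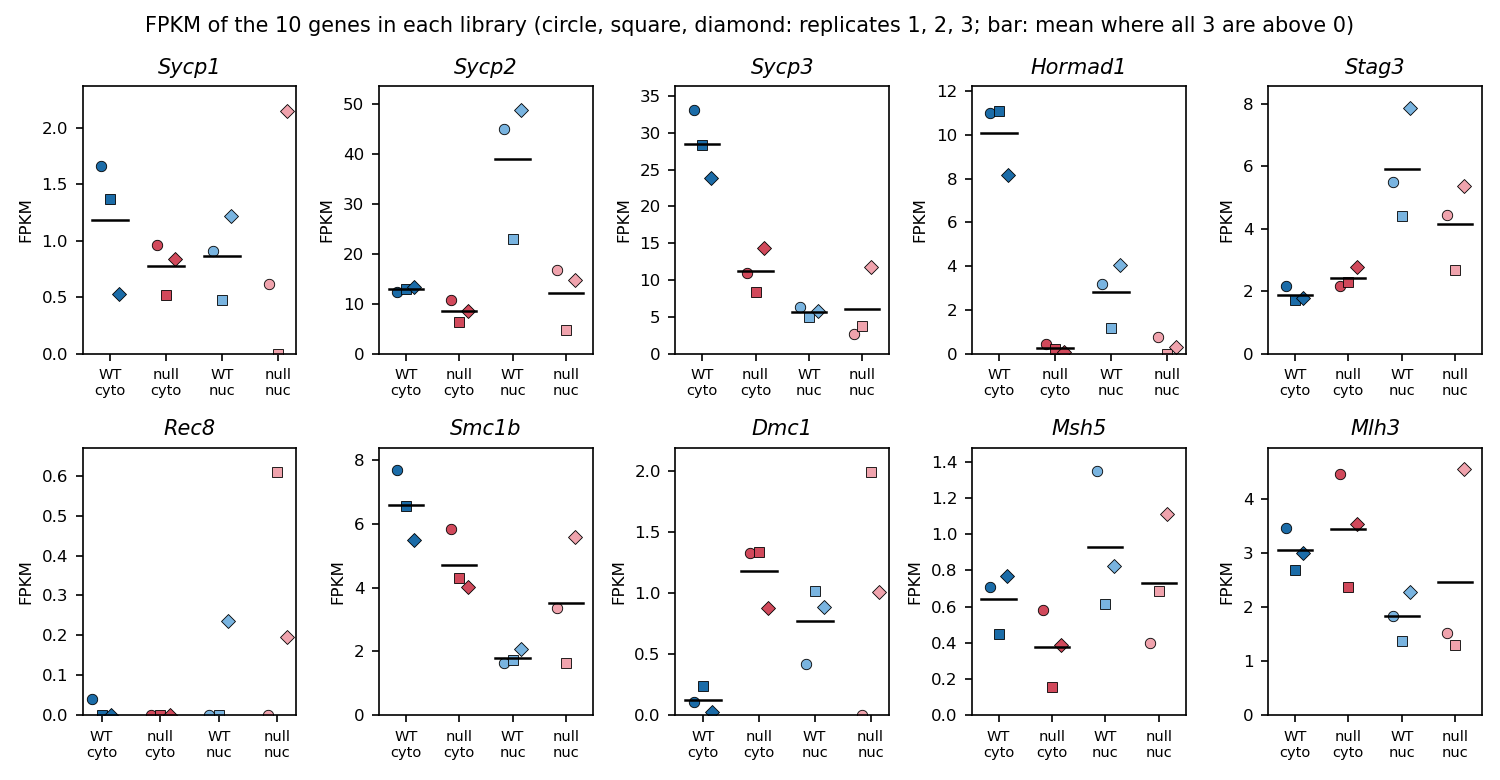
FPKM (linear y axes, a scale for each gene) of the 10 genes in the 12 libraries, grouped as WT cytoplasm, Mtr4-null cytoplasm, WT nucleus and Mtr4-null nucleus, with 1 symbol per library and a bar at the mean of groups with no library at 0. Hormad1 sits between 8.16 and 11.1 FPKM in WT cytoplasm but at 0.445 FPKM or less in the Mtr4-null cytoplasms, and Sycp2 is highest in the WT nuclei.

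Among the genes of the chromosome axis, the RNAs of the partner proteins SYCP2 and SYCP3 differed in opposite directions between nucleus and cytoplasm in WT oocytes. Sycp2 rose in the nucleus against the cytoplasm, while Sycp3 and Hormad1 fell. Sycp2 was at 12.4, 12.9 and 13.4 FPKM in WT cytoplasm but at 45.1, 23 and 48.9 FPKM in WT nuclei. Every nucleus stood above every cytoplasm, and the log2 fold change of nucleus against cytoplasm on the log2(FPKM + 1) scale was 1.45 ± 0.43 (SE, limma adjusted p = 0.0115). In rank, Sycp2 stood at percentiles 55.1 to 58.0 of the tested genes in the WT cytoplasms and at 91.5 to 95.2 in the WT nuclei.

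Sycp3, which coats the axis together with SYCP2, was at 33.1, 28.4 and 23.8 FPKM in WT cytoplasm but at 6.37, 4.98 and 5.74 FPKM in WT nuclei. All nuclei lay below all cytoplasms, with a log2 fold change of -2.13 ± 0.42 (limma adjusted p = 0.00141). Within a library, the ratio of Sycp2 to Sycp3 was 0.375 to 0.564 in the WT cytoplasms and 4.61 to 8.52 in the WT nuclei, and such a ratio does not depend on how the library was scaled. In the GENCODE annotation of the build GRCm38, the spans of Sycp3 and Chpt1, on opposite strands, share 13668 bases with introns included. Shared exons were not looked up and strand is not stated, so reads of the pair may in part not be told apart. Chpt1 averaged 3.51 FPKM in WT cytoplasm and 1.2 FPKM in WT nuclei, below Sycp3 in both.

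Hormad1, the RNA of the protein that marks unpaired axes and recruits the machinery that tests pairing, was at 11.0, 11.1 and 8.16 FPKM in WT cytoplasm but at 3.20, 1.17 and 4.03 FPKM in WT nuclei. The groups did not overlap, and its log2 fold change was -1.62 ± 0.37 (limma adjusted p = 0.00298). Sycp1, the transverse filament that joins paired axes, was low throughout, at 1.66, 1.37 and 0.526 FPKM in WT cytoplasm and 0.905, 0.471 and 1.22 FPKM in WT nuclei. Its groups overlapped, and its log2 fold change was -0.21 ± 0.39 (limma adjusted p = 0.655).

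The cohesin subunits also parted. Stag3, the subunit that stabilises meiotic cohesin on the chromosomes, was at 2.15, 1.70 and 1.77 FPKM in WT cytoplasm and rose, to 5.50, 4.41 and 7.85 FPKM in WT nuclei (log2 fold change 1.24 ± 0.34, limma adjusted p = 0.00723). Smc1b, the germline form of a core cohesin ATPase, was at 7.69, 6.57 and 5.48 FPKM in WT cytoplasm and fell, to 1.63, 1.72 and 2.06 FPKM in WT nuclei (log2 fold change -1.43 ± 0.37, limma adjusted p = 0.00549). Neither gene's compartments overlapped. The ratio of Smc1b to Stag3 within a library was 3.10 to 3.85 in the WT cytoplasms and 0.262 to 0.390 in the WT nuclei. Rec8, the kleisin subunit that closes the ring, was listed at 0 in 8 of the 12 libraries, and its highest value was 0.609 FPKM, in Mtr4-null nucleus replicate 2. It did not pass the filter on low values and was not tested.

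The recombination genes were low in WT oocytes and did not pass the test between compartments. Dmc1, the recombinase of meiotic strand exchange, was at 0.110, 0.235 and 0.0259 FPKM in WT cytoplasm but at 0.420, 1.02 and 0.883 FPKM in WT nuclei, without overlap (log2 difference 0.65 ± 0.36, limma adjusted p = 0.131). Mlh3, part of an endonuclease that resolves crossovers, was at 3.45, 2.69 and 3.0 FPKM in WT cytoplasm but at 1.84, 1.36 and 2.27 FPKM in WT nuclei. Its groups did not overlap either (log2 difference -0.53 ± 0.38, limma adjusted p = 0.239). Msh5, which with MSH4 forms a clamp on recombination intermediates, was at 0.447 to 0.771 FPKM in WT cytoplasm and 0.616 to 1.35 FPKM in WT nuclei. It did not pass the filter and was not tested.

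Of the 8 members tested between WT nucleus and cytoplasm, 2 rose and 3 fell, where 57.1% of the 13157 tested genes were called, 12% higher and 45% lower. Groups did not overlap for 3 members that were higher in the nucleus and 4 that were lower, against 14.1% and 59.4% of all tested genes. The median log2 difference was -0.37 over the tested members and -0.90 over all tested genes, with 1583 calls higher and 5926 lower over all genes. After median-of-ratios scaling, which brought the median of all genes to 0.00326 and the calls to 2540 higher and 1297 lower, Hormad1 was at -0.72 (limma adjusted p = 0.132) and Smc1b at -0.57 (0.106), so 3 members were called, and Sycp1 and Mlh3 changed sign. With a pseudocount of 0.1 the value of Hormad1 was -1.97 (limma adjusted p = 0.0511).

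**Figure D2:**
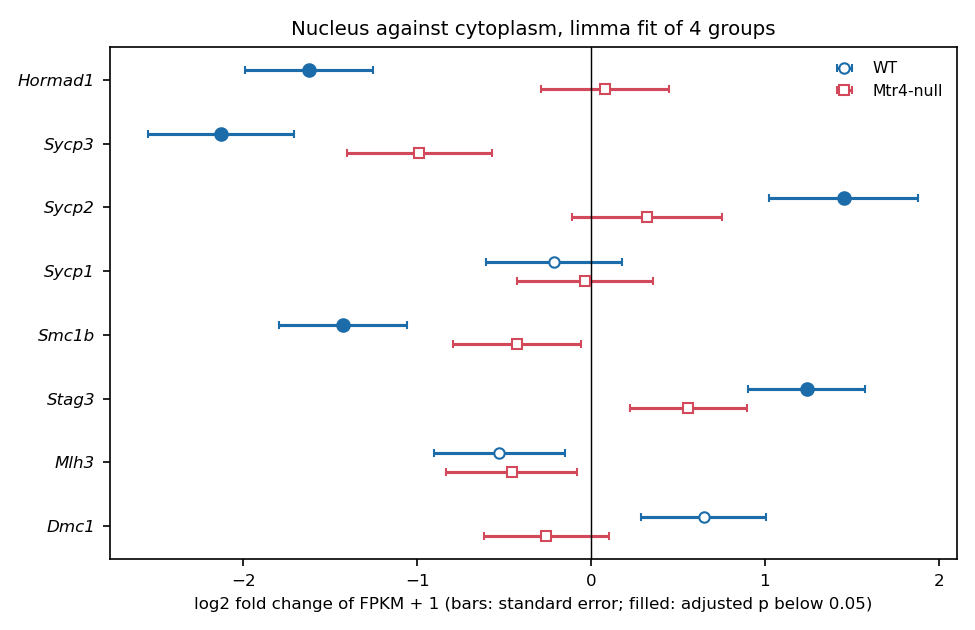
Log2 fold change of FPKM + 1 between nucleus and cytoplasm (x axis) for the 8 tested members (y axis), in WT and in Mtr4-null oocytes, with bars for the standard error and filled symbols where the limma adjusted p was below 0.05. Filled symbols are the 5 members called in WT, Sycp2 and Stag3 to the right of 0 and Sycp3, Hormad1 and Smc1b to the left, and no member is filled in Mtr4-null.

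The comparison of Mtr4-null with WT cytoplasm asks how these RNAs change in the larger part of the cell when MTR4 is missing. Hormad1 fell, Sycp3 and Sycp2 were lower without passing the test, and Dmc1 was higher without passing it. Hormad1 was at 11.0, 11.1 and 8.16 FPKM in WT cytoplasm (10.1 ± 1.66, SD, n = 3) and at 0.445, 0.214 and 0.0831 FPKM in cytoplasm without MTR4 (0.248 ± 0.183, n = 3). This was a log2 fold change of -3.15 ± 0.37 (limma adjusted p = 0.000808), and by p it was gene 6 of the 13157 tested. Its percentile among tested genes was 46.8 to 54.0 in the WT cytoplasms and 5.06 to 8.54 in the Mtr4-null cytoplasms. Tested genes had to reach 1 FPKM in 3 or more libraries, and Hormad1 did so in WT libraries only. Its low percentile in Mtr4-null therefore follows in part from that filter. The added pseudocount shrinks the fold of a gene this low, so the log2 fold change understates the change. In samples of pooled cells, fewer oocytes with the RNA and less of it in each oocyte cannot be told apart.

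The fall of Hormad1 held with each of the 12 libraries left out in turn, with log2 fold changes of -3.28 to -3.05 and limma adjusted p from 0.000171 to 0.00952. No gene in the GENCODE annotation overlaps Hormad1. To set the depth behind it, each FPKM was multiplied by the relative depth of its library and divided by the smallest such value above 0 of that gene. For Hormad1, 8 of the 8 results above 0 and below 20 were within 0.15 of a whole number. The smallest value itself becomes 1 by this division, so for every gene at least 1 such result was fixed in advance. The rounded values of Hormad1 were 198, 310 and 207 in the WT cytoplasms and 9, 2 and 1 in the Mtr4-null cytoplasms. They would be numbers of fragments if the smallest value stood for 1 fragment, which was not tested. Such results were near whole numbers also for Dmc1 (10 of 10) and Rec8 (4 of 4), but not for the other 7 members, with 5 of 9 for Sycp1, 4 of 8 for Sycp2, 2 of 7 for Sycp3, 3 of 12 for Stag3, 2 of 8 for Smc1b and for Mlh3, and 4 of 12 for Msh5.

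Sycp3 and Sycp2 were lower in all Mtr4-null cytoplasms but did not pass the test of the 4 groups. Sycp3 was at 11.0, 8.38 and 14.3 FPKM in cytoplasm without MTR4 (11.2 ± 2.98, n = 3), each below the lowest WT cytoplasm at 23.8 FPKM. The log2 difference was -1.28 ± 0.42 (limma adjusted p = 0.148). In the fit of the 6 cytoplasms alone, whose spread was smaller, the limma adjusted p was 0.0118, and without Mtr4-null nucleus replicate 3 the fit of 4 groups gave 0.0148, with 4.67% of all tested genes called. Sycp2 was at 10.7, 6.35 and 8.44 FPKM in cytoplasm without MTR4, against 12.4 to 13.4 FPKM in WT, with a log2 difference of -0.58 ± 0.43 (limma adjusted p = 0.726). Chpt1, which overlaps Sycp3, averaged 2.74 FPKM in cytoplasm without MTR4 and 3.51 FPKM in WT.

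Ratios among these 3 axis genes were also compared between the cytoplasms, without a test. The ratio of Hormad1 to Sycp3 within a library was 0.333, 0.390 and 0.343 in the WT cytoplasms and 0.0405, 0.0255 and 0.0058 in the Mtr4-null cytoplasms. The ratio of Sycp3 to Sycp2 was 2.67, 2.2 and 1.77 in WT cytoplasm, against 1.03, 1.32 and 1.70 without MTR4. Both ratios were lower in every Mtr4-null cytoplasm, the second by a narrow margin between 1.77 and 1.70. Sycp1, at 0.960, 0.519 and 0.840 FPKM in Mtr4-null, overlapped WT (log2 difference -0.27 ± 0.39, limma adjusted p = 0.932).

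The promoters of these 3 axis genes are shown because each was lower in every Mtr4-null cytoplasm than in any WT cytoplasm, by unequal amounts, and they were picked after these values were seen. The windows hold the 250 bases before the start of the gene, 5′ to 3′ on the gene's strand, from RefSeq with the build GRCm38.p6, and all 10 members matched an entry. Capitals mark CACGTG, the E-box letters that read the same on both strands, and TCCCGC or its complement GCGGGA, the core bound by E2F factors. No binding was measured, and the letters were chosen with the expression values known. Hormad1 lies at chr3:95559427-95559676 on the plus strand, Sycp3 at chr10:88459337-88459586 on the plus strand and Sycp2 at chr2:178407659-178407908 on the minus strand.
Hormad1: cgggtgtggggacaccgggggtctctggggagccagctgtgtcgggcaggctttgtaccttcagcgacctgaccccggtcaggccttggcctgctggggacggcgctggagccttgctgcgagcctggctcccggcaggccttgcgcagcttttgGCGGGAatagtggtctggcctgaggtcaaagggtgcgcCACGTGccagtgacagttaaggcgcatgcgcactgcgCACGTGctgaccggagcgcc
Sycp3: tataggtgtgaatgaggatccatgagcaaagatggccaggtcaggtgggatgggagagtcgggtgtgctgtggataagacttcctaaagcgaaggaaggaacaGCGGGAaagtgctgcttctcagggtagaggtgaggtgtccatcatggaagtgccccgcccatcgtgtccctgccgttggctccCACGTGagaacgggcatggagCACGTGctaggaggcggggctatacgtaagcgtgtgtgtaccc
Sycp2: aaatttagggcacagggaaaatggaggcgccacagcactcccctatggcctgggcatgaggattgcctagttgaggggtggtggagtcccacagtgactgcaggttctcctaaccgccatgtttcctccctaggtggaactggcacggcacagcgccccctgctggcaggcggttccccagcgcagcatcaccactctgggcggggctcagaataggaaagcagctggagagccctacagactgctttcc
The Hormad1 and Sycp3 windows each held 2 E-boxes and 1 E2F core, and the Sycp2 window held neither. Over the 10 members the E-box stood in 4 windows (Sycp1, Sycp3, Hormad1 and Stag3), against 6.86% of 27025 genes. The E2F core stood in 6 (Sycp3, Hormad1, Rec8, Smc1b, Dmc1 and Msh5), against 18.8%. TAATTG or CAATTA, letters bound by the oocyte factor NOBOX, stood in 1 (Mlh3), against 8.30%. The members' windows held 7 to 26 CpG with a median of 16, against a median of 6 over 32851 windows. The E-box and E2F letters each contain CG, and the shares over all genes were not matched for CpG. Of the members with the E-box, Hormad1 was called in the cytoplasm and Sycp3, Stag3 and Sycp1 were not. Any part of these letters in the values was not tested.

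Of the cohesin genes, Stag3 was at 2.17, 2.29 and 2.78 FPKM in cytoplasm without MTR4, just above the 1.70 to 2.15 FPKM of WT. The log2 difference was 0.25 ± 0.34 (limma adjusted p = 0.922). Smc1b was at 5.83, 4.30 and 4.02 FPKM in Mtr4-null and overlapped the 5.48 to 7.69 FPKM of WT (log2 difference -0.41 ± 0.37, limma adjusted p = 0.822). The ratio of Smc1b to Stag3 was 2.69, 1.88 and 1.45 in the Mtr4-null cytoplasms, each below the lowest WT ratio of 3.10. Rec8 was listed at 0 in all Mtr4-null cytoplasms and in 2 of the 3 WT cytoplasms.

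Dmc1 was higher in all Mtr4-null cytoplasms but did not pass the test of the 4 groups. It was at 0.110, 0.235 and 0.0259 FPKM in WT cytoplasm but at 1.33, 1.34 and 0.874 FPKM in cytoplasm without MTR4, without overlap. The log2 difference was 0.95 ± 0.36, with a limma adjusted p of 0.230 in the fit of all 4 groups and of 0.00563 in the fit of the 6 cytoplasms. Multiplied by relative depth as for Hormad1, the rounded multiples of its smallest value were 3, 10 and 1 in WT cytoplasm, against 41, 19 and 16 without MTR4, with 10 of 10 results below 20 within 0.15 of a whole number. Mlh3, at 4.45, 2.36 and 3.53 FPKM, overlapped WT (log2 difference 0.11 ± 0.38, limma adjusted p = 0.994). Msh5 was at 0.582, 0.157 and 0.389 FPKM in Mtr4-null and overlapped WT as well.

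From the highest, the order in the Mtr4-null cytoplasm was Sycp3, Sycp2, Smc1b, Mlh3, Stag3, Dmc1, Sycp1, Msh5, Hormad1 and Rec8. Hormad1 had moved from the third place in WT to the ninth. Neighbours in this order were separated only between Sycp2 and Smc1b, Stag3 and Dmc1, and Hormad1 and Rec8.

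In the cytoplasm 1 of the 8 tested members fell and 0 rose, where 1.88% of all tested genes were called, 0.714% lower and 1.17% higher. At an unadjusted p below 0.05, 2 members were lower and 1 was higher. Groups did not overlap for 3 members that were lower and 2 that were higher, beside 20.9% and 23% of all tested genes. In the fit of the 6 cytoplasms alone, 3 members were called (Hormad1 and Sycp3 lower, Dmc1 higher), beside 23.2% of all tested genes (9.85% lower, 13.3% higher). The median log2 difference was -0.34 over the tested members and 0 over all tested genes. The sum of 18 granulosa cell markers was 67.6 to 74.3 FPKM in WT cytoplasm and 35.2 to 51.5 FPKM in cytoplasm without MTR4, and its part in these values was not tested. Of the 18 markers, 9 had a lower mean in cytoplasm without MTR4, 8 a higher one, and Krt18 was at 0 in all cytoplasms. Most of the sum came from Nr5a2 and Esr2, which were at 26.6 to 30.6 and 21.8 to 25.6 FPKM in WT and at 15.5 to 20.3 and 12.2 to 17.5 FPKM without MTR4. Krt8 averaged 8.02 FPKM in WT and 3.43 FPKM without MTR4, Cyp19a1 3.93 and 2.07 FPKM, Kitl 3.19 and 1.65 FPKM, and Inha 1.56 and 0.442 FPKM. The defining genes Foxl2 and Amh averaged 0.0791 and 0.0756 FPKM in WT and 0.248 and 0.326 FPKM without MTR4.

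**Figure D3:**
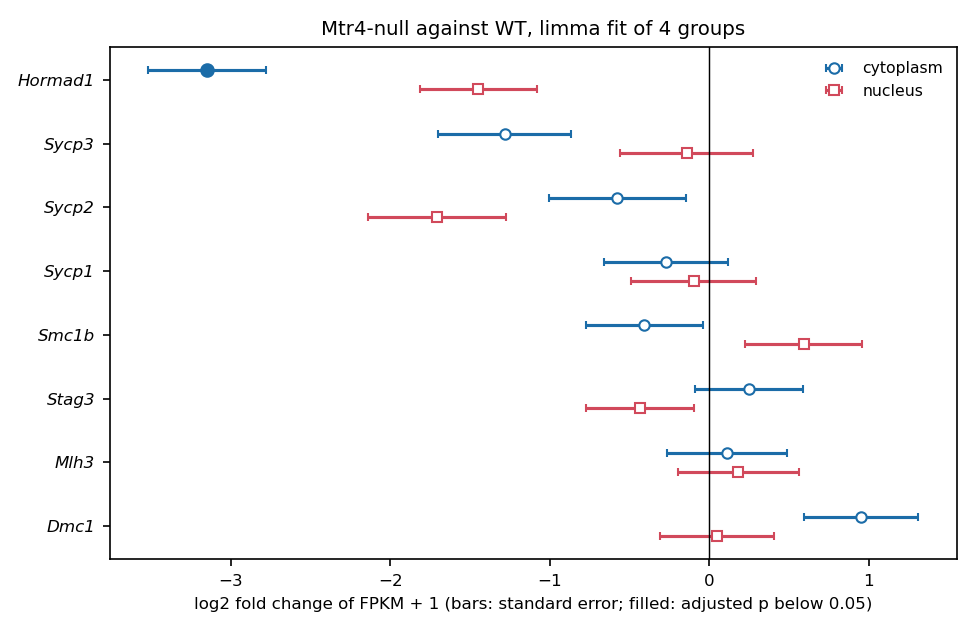
Log2 fold change of FPKM + 1 between Mtr4-null and WT (x axis) for the 8 tested members (y axis), in cytoplasm and nucleus, with bars for the standard error and a filled symbol where the limma adjusted p was below 0.05. Hormad1 in the cytoplasm, at -3.15, is the filled symbol, and the nuclear values of Sycp2 and Hormad1 lie left of -1 with adjusted p of 0.0514 and 0.0532.

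In the nucleus, Sycp2 and Hormad1 were the members with the lowest values in Mtr4-null relative to WT, and neither passed the test. Sycp2 was at 45.1, 23 and 48.9 FPKM in WT nuclei, compared with 16.7, 4.63 and 14.8 FPKM in the libraries labelled Mtr4-null nucleus. The groups did not overlap, and the log2 difference was -1.71 ± 0.43 (limma adjusted p = 0.0514). Its percentile among tested genes was 91.5 to 95.2 in the WT nuclei and 56.7 to 80.8 in the nuclei labelled Mtr4-null. Hormad1 was at 3.20, 1.17 and 4.03 FPKM in WT nuclei, compared with 0.758, 0 and 0.280 FPKM in nuclei labelled Mtr4-null, again without overlap, with a log2 difference of -1.45 ± 0.37 (limma adjusted p = 0.0532).

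As rounded multiples of its smallest value, Hormad1 was at 10, 3 and 12 in WT nuclei and at 2, 0 and 2 in those labelled Mtr4-null, so few fragments stand behind its nuclear values if the smallest was 1 fragment.

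The other axis and cohesin genes overlapped between the genotypes in the nucleus. Sycp3 was at 2.70, 3.69 and 11.7 FPKM in nuclei labelled Mtr4-null against 4.98 to 6.37 FPKM in WT, the value of replicate 3 lying in the range of the Mtr4-null cytoplasms (log2 difference -0.14 ± 0.42, limma adjusted p = 0.898). Stag3 was at 4.43, 2.66 and 5.36 FPKM against 4.41 to 7.85 FPKM (log2 difference -0.43 ± 0.34, limma adjusted p = 0.547). Smc1b was at 3.36, 1.62 and 5.57 FPKM against 1.63 to 2.06 FPKM (log2 difference 0.59 ± 0.37, limma adjusted p = 0.425). For Sycp3 and Smc1b the highest Mtr4-null nucleus was replicate 3, the library nearest to the cytoplasms, whose part in these values was not tested. Sycp1 (0 to 2.15 FPKM), Dmc1 (0 to 1.99), Msh5 (0.401 to 1.11) and Mlh3 (1.30 to 4.55) also covered or overlapped the WT range.

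In the nucleus 0 of 8 members were called by limma, where 2.26% of all tested genes were (1.75% lower, 0.517% higher). At an unadjusted p below 0.05, 2 members were lower, and the share of all tested genes at that threshold was not counted. Groups did not overlap for 2 members that were lower and for none that were higher, beside 6.70% and 6.22% of all tested genes. With replicate 1 of the libraries labelled Mtr4-null nucleus left out, Sycp2 was at -2.01 (limma adjusted p = 0.0149) and Hormad1 at -1.66 (0.0156), beside 10.2% of all tested genes called, and without WT nucleus replicate 2 they were at -2.04 (0.0323) and -1.81 (0.0162), beside 3.37%. Without replicates 1 and 3, which leaves 1 Mtr4-null nucleus assumed to vary like the other groups, they were at -2.76 (0.0015) and -1.84 (0.0139), beside 30.1%, while in the fit of the 6 nuclei alone their limma adjusted p were 0.461 and 0.476, beside 0.038% of all tested genes called.

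Within Mtr4-null oocytes no member was called between nucleus and cytoplasm, beside 32.2% of all tested genes (28.1% lower, 4.08% higher). That share was 23.5% to 33.4% without any single WT nucleus and 64.8% without Mtr4-null nucleus replicate 3. It was 1.35% to 4.47% without any single one of the other 8 libraries, so the count of members stands beside an unsteady background. Sycp3 was at -0.99 ± 0.42 (limma adjusted p = 0.071), the 1 member at an unadjusted p below 0.05, and at -1.53 (0.00102) without the cytoplasm-like replicate 3. Sycp2 was at 0.32 ± 0.43 (limma adjusted p = 0.540), Stag3 at 0.56 ± 0.34 (0.176), Smc1b at -0.43 ± 0.37 (0.335) and Hormad1 at 0.08 ± 0.37 (0.863). Compartments overlapped for every tested member in Mtr4-null, beside 5.95% of all tested genes that were higher and 35.8% that were lower without overlap. The median over all genes was -0.82 and that over the tested members -0.15.

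Whether the genotype difference itself differed between nucleus and cytoplasm was tested as an interaction, which called 0 members beside 0.122% of all tested genes. Hormad1 had a difference of 1.70 ± 0.52 (limma adjusted p = 0.220), the 1 member at an unadjusted p below 0.05. The values for Sycp2 and Sycp3 were -1.13 ± 0.61 (limma adjusted p = 0.592) and 1.14 ± 0.59 (0.567). The genotype effect on these genes was thus not shown to differ between the compartments. Within a library the ratio of Sycp2 to Sycp3 was 6.19 in replicate 1 of the libraries labelled Mtr4-null nucleus and 1.26 in both other Mtr4-null nuclei, against 4.61 to 8.52 in the WT nuclei. No test was made on this ratio.

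Around the 10 members, 73 of 77 other meiotic prophase genes were found in the table and 65 were tested, the other 4 being not analysed here. In the cytoplasm 1 of the 65 fell in Mtr4-null and 0 rose by limma, beside 0.714% and 1.17% of all tested genes. Their median was -0.13. At an unadjusted p below 0.05, 4 were lower and 2 higher, without a count over all tested genes. The gene that fell was Ccnb1ip1, which encodes HEI10, a protein that marks sites of future crossovers. It was at 12, 11.9 and 9.60 FPKM in WT cytoplasm but at 1.79, 3.54 and 0.750 FPKM in cytoplasm without MTR4 (log2 fold change -2.11 ± 0.42, limma adjusted p = 0.0185). The call was lost without WT cytoplasm replicate 1, 2 or 3 or Mtr4-null cytoplasm replicate 1 or 3, with limma adjusted p of 0.0694 to 0.134. Ccnb1ip1 shares 284 bases with Rpph1 on the same strand, which averaged 397 FPKM in WT cytoplasm and 299 FPKM in Mtr4-null, so part of its reads may be assigned to either.

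In the fit of the 6 cytoplasms alone, 11 of the 65 fell and 4 rose, beside 9.85% and 13.3% of all tested genes. Those with the largest falls, chosen after their values were seen, were Ccnb1ip1, Cntd1, Tex12 and Meiob. Cntd1, a partner of HEI10 in crossover formation, averaged 3.84 FPKM in WT and 0.601 FPKM in Mtr4-null cytoplasm (limma adjusted p = 0.0234 in that fit, 0.153 in the fit of 4 groups). Tex12, a part of the central element of the synaptonemal complex, averaged 6.85 and 2.39 FPKM (0.0258 and 0.580). Meiob, which binds single-stranded DNA in recombination, averaged 1.35 and 0.0432 FPKM (0.00228 and 0.0728). The largest rises were Top6bl, a partner of SPO11 in making double-strand breaks, with 0.145 and 2.05 FPKM (0.0104 and 0.152), and the nuclease partner Eme1 with 8.28 and 18.2 FPKM (0.00764 and 0.366). The span of Cntd1, introns included, overlaps that of Becn1 on the opposite strand. Becn1 averaged 22.9 FPKM in WT and 26.4 FPKM in Mtr4-null cytoplasm. Meiob reached 1 FPKM, the level of the filter, in WT libraries only, and Top6bl in Mtr4-null libraries only. Both were thus tested only through the genotype in which they were high. Overlaps were not looked up for Tex12, Meiob, Top6bl and Eme1.

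**Figure D4:**
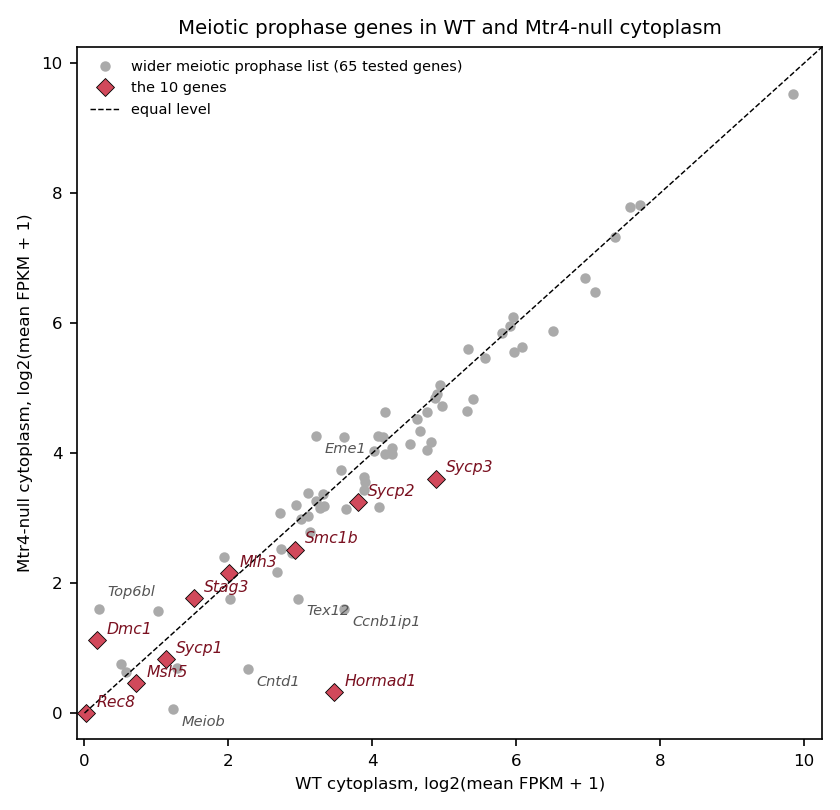
Mean level, as log2(mean FPKM + 1), in WT cytoplasm (x axis) and Mtr4-null cytoplasm (y axis) of the 10 members (diamonds) and of the 65 tested genes of the wider meiotic prophase list (grey), with a dashed line at equal level. Hormad1, Cntd1, Ccnb1ip1, Tex12 and Meiob lie below the line, and Dmc1, Top6bl and Eme1 above it.

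In the nucleus none of the 65 was called by limma between the genotypes, beside 2.26% of all tested genes, and their median was -0.05. At an unadjusted p below 0.05, 3 were lower and 4 higher, without a count over all tested genes. Between WT nucleus and cytoplasm 36 fell and 2 rose, beside 45% and 12% of all tested genes, with a median of -1.23 against -0.90 over all tested genes. The 2 that rose act in the placing and making of double-strand breaks. They were Mei4 (log2 fold change 0.96 ± 0.29, limma adjusted p = 0.0131) and Prdm9 (1.12 ± 0.29, 0.00558). Prdm9 was at 0.473 to 0.536 FPKM in WT cytoplasm and at 1.56 to 3.37 FPKM in WT nuclei. It reached 1 FPKM in nuclei only, so it was tested only through the compartment in which it was high. Of the 19 tested cohesin genes outside the 10 members, 14 fell and 0 rose in the WT nucleus, so Stag3 was the cohesin gene called higher there. At an unadjusted p below 0.05, 15 of the 19 were lower and 0 higher, again without a count over all tested genes.

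The cohesin members have a relative that works in all dividing cells, and the level of each was set against it within each library, as a log2 ratio of FPKM + 1. In the WT cytoplasm the germline gene was the lower of each of the 4 pairs in every library. Smc1b was near Smc1a (-0.40 ± 0.13, SD, n = 3), whereas Rec8 stood far below Rad21 (-5.05 to -4.87). Stag3 was below Stag1 in the WT cytoplasms (-1.75 ± 0.03) and level with it in the WT nuclei (0.09 ± 0.37), and the same held against Stag2 (-2.65 ± 0.03 and 0.26 ± 0.64).

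In the Mtr4-null cytoplasms the ratios of Stag3 to Stag1 (-1.39 ± 0.15) and to Stag2 (-2.52 to -2.02) were above WT in all libraries. That of Smc1b to Smc1a (-0.68 ± 0.11) was below WT in all libraries. These differences between the genotypes were not tested.

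**Figure D5:**
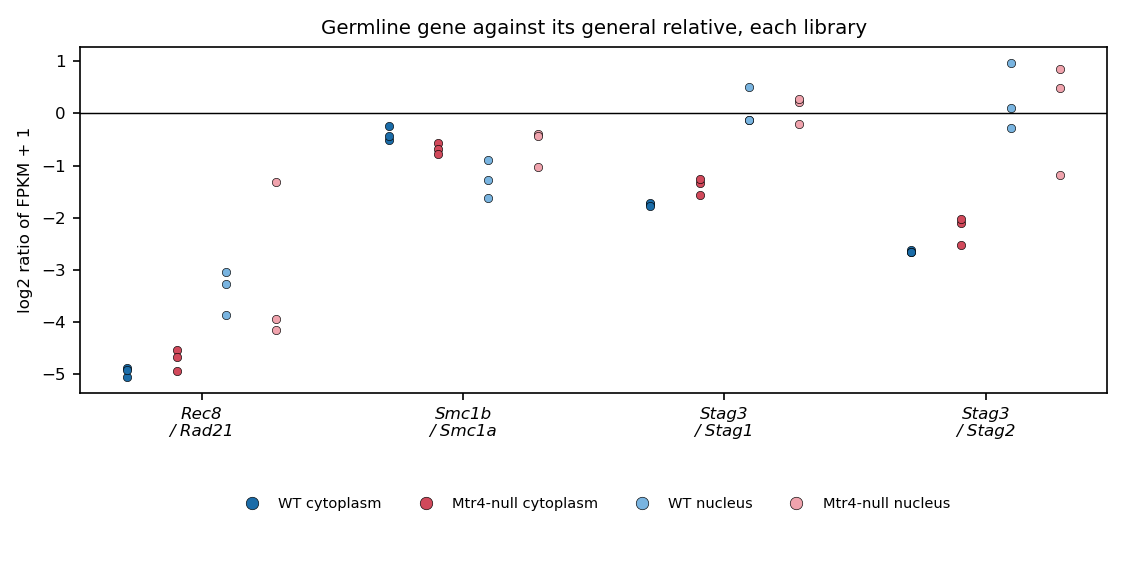
Log2 ratio of FPKM + 1 (y axis) of a germline gene to its general relative, for 4 pairs (x axis), with 1 point per library coloured by group and a line at equal level. All points of the WT cytoplasm lie below 0, and the Stag3 points lie nearer to 0 in the nuclei, with Stag3 to Stag2 at -1.19 in Mtr4-null nucleus replicate 3.

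For the 3 members with the highest mean level, the genes with the most similar pattern were found by the root mean square difference of their log2(FPKM + 1), centred on each gene's mean over the 12 libraries. For Sycp2 these were Arhgap20 (0.202), Impact (0.205) and Pde4d (0.232), all with their highest group mean in the WT nuclei. For Sycp3 they were Nln (0.272), Nop58 (0.292) and Tubgcp5 (0.307), and for Smc1b Senp6 (0.160), Mthfd1 (0.160) and Shc4 (0.167), all with their highest group mean in the WT cytoplasms.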

How the data were processed

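The 12 samples gave rRNA-depleted total RNA libraries (TRIzol extraction), read as pairs of 150 bp, per the labels' protocols. The deposited table holds FPKM made by the authors with TopHat2 2.1.1, Cufflinks 2.2.1 and mouse build mm9, all named in the submitters' processing notes. Which annotation was used and whether strand counted is not given in the sources used here. A value in FPKM is a share of a library, not an amount per oocyte. Absolute depth and detection limits are unknown, and nuclear values, at lower relative depth, are less precise. The design text speaks of duplicates, although 3 libraries carry each group's label. No 2 libraries held identical values. Separate mice are not stated for the libraries of a group, so the p-values measure only how far these libraries spread, which may be technical.

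A gene was fitted if it reached 1 FPKM in 3 or more of the 12 libraries (13157 did), as log2(FPKM + 1) with limma 3.58.1 in R 4.3.3, with 4 group means and variances moderated with a trend on level. The 5 comparisons were Mtr4-null against WT in each compartment, the 2 compartments within each genotype, and the interaction. Two-sided p-values were adjusted over all tested genes (Benjamini-Hochberg), and 0.05 was the threshold for a call. A fold change is printed with its standard error. The fit was tested on simulated data. Alternatives were another pseudocount, no filter, median-of-ratios scaling, quantile normalization, library weights, fits of 6 libraries, a replicate block and leaving libraries out.

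The members and the lists were chosen with earlier results of these data known. All 10 members are named. Of the wider list the rule names called genes (at most 8 a comparison by size of fold change), and for the 3 most abundant members the 3 tested genes of most similar pattern. Relative depth was read from values below 1 FPKM shared between libraries. Sequences are from RefSeq, whose build differs from that of the table, so they serve as gene models only. Levels and motifs were computed in Python 3.11.15.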

Additional observations from a re-analysis of the deposited data

How the results depend on the processing

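The fall of Hormad1 in the Mtr4-null cytoplasm kept its call under each setting run. The number of called members in the cytoplasm, 1 in the fit of 4 groups, was 4 with library weights (36.5% of all tested genes called, against 1.88%), 3 in the fit of 6 libraries (23.2%) and 3 without Mtr4-null nucleus replicates 1 and 3 (10.4%), and 1 to 2 with single libraries left out (0.426% to 4.67%). In the nucleus it was 0 (2.26%), and 2 after median-of-ratios scaling (9.59%), 2 after quantile normalization (8.66%), 2 with a replicate block (2.87%), 2 without replicates 1 and 3 (30.1%), and 0 to 2 with single libraries left out (0.95% to 10.2%). Between WT compartments it was 5 (57.1%), and 3 after median-of-ratios scaling (29.2%) and 5 to 6 with single libraries left out (43.5% to 65.4%). Between Mtr4-null compartments it was 0 (32.2%), and 2 after median-of-ratios scaling (4.89%), 3 with library weights (63.4%), 3 without replicates 1 and 3 (64.4%), and 0 to 2 with single libraries left out (1.35% to 64.8%). The interaction called 0 (0.122%), and 1 with library weights (7.30%), and 0 in every fit with a single library left out (0.038% to 2.2%). Of all settings run for the interaction, 2 moved this count of members from 0, library weights being among them. The causes were not tested. Ccnb1ip1 in the cytoplasm lost its call with a pseudocount of 0.1 (limma adjusted p = 0.214), without the filter (0.0618), after median-of-ratios scaling (0.05) and after quantile normalization (0.065).

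Directions turned for Mlh3 in the cytoplasm (-0.036 after quantile normalization; -0.048 to 0.301 with single libraries left out), for Smc1b in the nucleus (-0.097 without replicates 1 and 3) and for Sycp3 in the nucleus (-0.68 to 0.212 with single libraries left out). Between WT compartments Sycp1 was at 0.315 and Mlh3 at 0.252 after median-of-ratios scaling. Between Mtr4-null compartments Sycp2 was at -0.728 and Hormad1 at -0.309 without replicates 1 and 3, Hormad1 ran from -0.131 to 0.276 with single libraries left out, and Smc1b was at 0.281 after median-of-ratios scaling and 0.086 after quantile normalization.

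Samples of 1 replicate number did not deviate together (correlations of -0.16 to 0.303), and 4 of 12 libraries correlated best with their own number. The labels do not say whether nuclei and cytoplasms of 1 number came from the same oocytes, and the fit of 4 groups did not pair them. Between compartments the replicate block moved calls over all genes from 7509 to 7916 in WT and from 4230 to 5535 in Mtr4-null. The replicate block moved the nuclear count of members from 0 to 2, with limma adjusted p of 0.0247 for Sycp2 and 0.0471 for Hormad1, and calls over all genes from 248 to 328 in the cytoplasm and from 298 to 377 in the nucleus. Over all genes, calls in the cytoplasm were 248 in the fit of 4 groups and 3050 in the fit of the 6 cytoplasms, and in the nucleus 298 and 5. Between WT compartments median-of-ratios scaling turned 1583 higher and 5926 lower calls into 2540 and 1297, and between Mtr4-null compartments 537 and 3693 into 610 and 34. In the nucleus quantile normalization turned 68 higher and 230 lower calls into 498 and 642. The second called member in the cytoplasm without Mtr4-null nucleus replicate 3 was Sycp3. The low depth of the nuclei limits every nuclear value of a gene below a few FPKM.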

Other observations

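Hormad1 was not among the 3 members whose similar genes were listed, and the genes nearest to it were sought after its values were seen. By the same measure they were Manba (0.333), Fstl5 (0.408) and Mro (0.423). Manba, the lysosomal beta-mannosidase, was at 11.0, 10.7 and 7.75 FPKM in WT cytoplasm but at 0.391, 0.443 and 0.344 FPKM in cytoplasm without MTR4. Fstl5 averaged 4.77 and 0.0662 FPKM, and Mro 10.9 and 1.27 FPKM, in the same groups. These genes were chosen for this likeness, so their values are a description.

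Syce2, a central element gene of the synaptonemal complex, was far above all 10 members in the cytoplasm. It was at 213, 183 and 178 FPKM in WT cytoplasm, 212, 259 and 190 FPKM in cytoplasm without MTR4, and at 40.6 to 47.7 FPKM in WT nuclei, while Sycp1, whose protein it binds, stayed at 2.15 FPKM or less in all 12 libraries. Overlaps of Syce2 with other genes were not looked up.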
